A study of Mus musculus with 6 samples.

Results

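The genes described here are those of cell division proper: the cyclin-dependent kinase that starts mitosis and its partners, the mitotic kinases, the proteins of the centromere, kinetochore and spindle, the spindle checkpoint, the machinery of cytokinesis and the transcription factors that drive this programme. A list of 51 symbols was matched to the probe sets of the array, a probe set was used where the array annotation gave it exactly 1 gene symbol, and for each gene the brightest of these, by its mean over all arrays, was read. This gave values for 50 of the 51 genes, out of 18193 genes measured, and Ccnb1 was not analysed here. They were read in splenic germinal centre B cells, prepared with magnetic beads from mice immunised with sheep red blood cells. The control mice, ImHABCL6 (3 arrays), are known as a knock-in of tagged BCL6, the repressor that defines germinal centre B cells, into the immunoglobulin heavy-chain locus, which keeps BCL6 expressed in B cells. The mice compared with them, ImHABCL6/Uchl1 (3 arrays), carry the same BCL6 allele and in addition a Uchl1 transgene, which encodes a deubiquitinating enzyme, so every group described here has deregulated BCL6. The sources used here give neither the promoter of the Uchl1 transgene nor the age and sex of the mice. The comparison asks how transgenic Uchl1 alters gene expression in these cells.

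A cell enters mitosis when CDK1 is bound by A- and B-type cyclins and its inhibitory phosphates are removed by CDC25 phosphatases. Polo-like and Aurora kinases then build the spindle, kinetochores on the centromeres attach chromosomes to it, and the spindle checkpoint holds back the anaphase-promoting complex until every chromosome is attached. Most of these genes are transcribed only from late S phase to mitosis, under FOXM1, MYBL2 and the MuvB complex, so that their RNA in a tissue follows the share of dividing cells; germinal centre B cells, above all the centroblasts of the dark zone, are among the fastest dividing cells of the body.

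Uchl1 read 5.01, 5.0 and 5.02 in the controls and 5.96, 5.87 and 6.02 with the transgene, on the deposited log2 scale that all levels below use. All transgenic arrays lay above all controls, as labelled, with a difference of 0.94 (SE 0.12, limma adjusted p = 0.638). The control values lay below the median of all probe sets (5.61) and may be background, so the size of this difference is uncertain. The germinal centre and B-cell markers were present at high levels (Bcl6 at 11.14 ± 0.09 in controls and 11.38 ± 0.23 with the transgene, Ms4a1 at 13.69 and 13.74, SD over 3 arrays for Bcl6). The mean of the 10 measured markers of that list ranged from 10.91 to 10.94 in controls and from 10.84 to 11.28 with the transgene. All mice carry the BCL6 knock-in, so the Bcl6 level alone does not show that these are germinal centre cells. Others of the list averaged, in controls and with the transgene, 11.32 and 11.11 (Mybl1), 10.68 and 10.79 (S1pr2), 10.02 and 9.82 (Gcsam), and 9.12 and 9.14 (Fas). Markers of red-cell precursors, which also divide, were bright too: the mean of 13 measured erythroid markers stood at 10.22, 10.77 and 11.18 on control arrays 1 to 3 and at 8.79, 10.68 and 10.03 on the transgenic ones. Of these 13 genes 12 were lower on average with the transgene, where 49.4% of all genes were. The anion exchanger Slc4a1 averaged 13.73 and 13.02, whereas the probe set of the globin Hba-a1 read 4.17 and 4.22. ImHABCL6/Uchl1 replicate 1 therefore stood apart by its low erythroid level. T-cell, NK-cell and macrophage lists averaged at most 5.65 on every array, against a median probe set of 5.56 to 5.67. Neutrophil markers averaged 6.49 in control replicate 1, 5.52 and 5.24 in control replicates 2 and 3, and 5.45, 5.54 and 5.21 with the transgene. All 7 neutrophil genes had the lower mean with the transgene, where 49.4% of all genes did, but 4 of the 7 had a mean under 5.6. All 5 NK-cell genes were lower as well, each with a mean under 5.6. Plasma cell markers averaged 8.49 to 8.81 in controls and 8.55 to 8.77 with the transgene, and megakaryocyte markers 7.28 to 8.09 and 7.03 to 8.11. With 3 arrays a genotype, precision is limited throughout.

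All 50 genes were expressed in both genotypes, with every value on every array at 7.59 or above. In ImHABCL6/Uchl1 cells 48 of the 50 had the lower mean, by small amounts. The median log2 difference, ImHABCL6/Uchl1 minus control, was -0.24, which is 1.18-fold, and single genes ranged from -0.77 (Anln) to 0.046 (Ttk). Over all 18193 genes the median was 0.0029 and 49.4% had the lower mean, and among the 6268 genes at least as bright as the dimmest member 64.8% did, and among the 10847 genes whose mean passed the median of all probe sets (5.61) 57.3% did. A difference of more than 0.25 downwards was seen in 22 of the 50 members and in 11.4% of all genes. That share counts genes of every brightness, whereas the members were bright, with a median at percentile 93.0 of gene means. The share of this size among equally bright genes was not taken. In bulk RNA fewer cells of a type and less RNA per cell cannot be told apart, so a lower value can stand for either.

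No single member passed the test. In limma's moderated test, with Benjamini-Hochberg adjustment over all 18193 genes, 0 of the 50 had an adjusted p under 0.05, against 0.0% of all genes, and the adjusted p of the members ran from 0.868 to 0.999. At an unadjusted p under 0.05, 7 members were lower and 0 higher, or 7 of 50 where 3.85% of all genes were called lower and 1.09% higher. These were Cenpk, Anln, Cenpa, Cenpi, Tpx2, Prc1 and Ccnb2. The count of 7 moved with the setting. It was 3 without control replicate 2 (2.06% of all genes), 3 without control replicate 3 (1.59%) and 11 without ImHABCL6/Uchl1 replicate 1 (5.43%). With only the 10847 genes of mean above 5.61 fitted, it was 5, where 5.14% of those genes were called lower. The count was 24 with array weights (9.88%), 12 with the erythroid mean as a covariate (11.0%), 3 with limma's trend and robust options (3.41%), and 16 of 113 when each probe set was tested (3.49%). The weights of ImHABCL6/Uchl1 replicates 1, 2 and 3 were 0.51, 0.30 and 3.30. On the transgenic side the count of 24 thus rested mostly on replicate 3. All 3 transgenic arrays lay below all 3 controls for 10 members, where 5.49% of all genes did so, and all lay above for 0, where 3.95% did so. The 10 were Ccnb2, Cdk1, Cenpa, Cenph, Cenpi, Cenpk, Spc24, Prc1, Anln and Mybl2. The median standard error of a member's difference was 0.15, and an adjusted p that misses the threshold does not show that a gene did not differ. This shift in one direction was part of the results that were known when these genes were chosen, and it is a description of these 6 arrays.

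**Figure D1:**
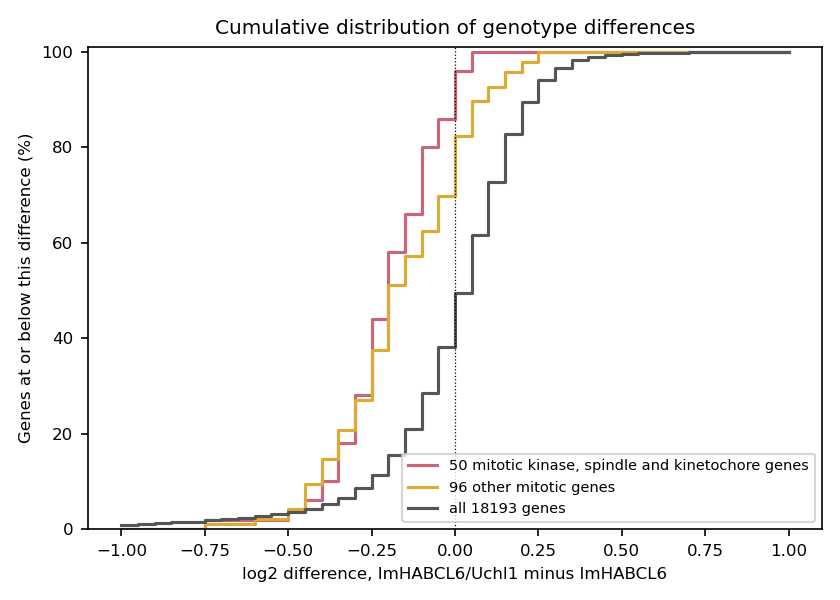
Cumulative share of genes (vertical axis, percent) whose log2 difference, ImHABCL6/Uchl1 minus ImHABCL6, is at or below the value on the horizontal axis, for the 50 mitotic genes, 96 other mitotic genes and all 18193 genes. The curve of the 50 genes reaches 96.0% at a difference of 0, that of the other mitotic genes 82.3% and that of all genes 49.4%.

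**Figure D2:**
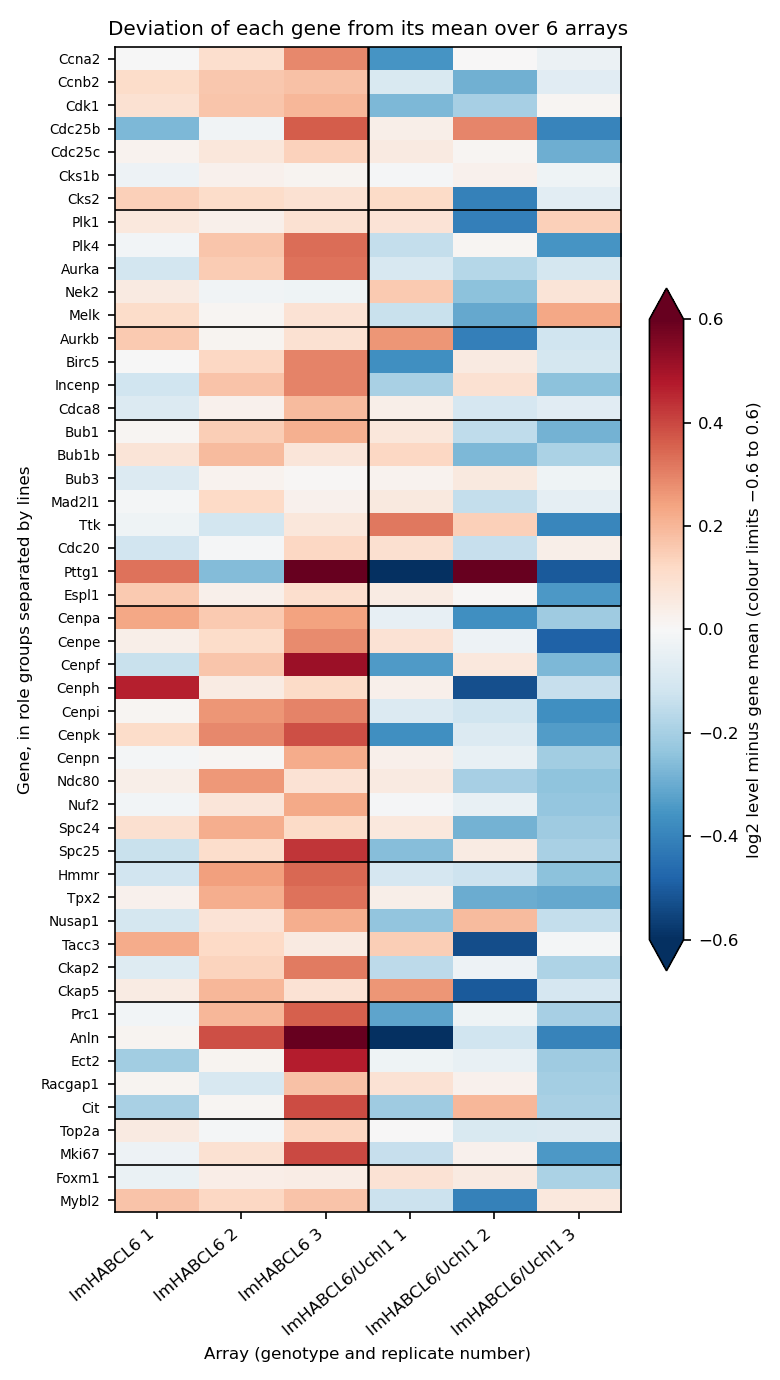
Deviation of each of the 50 genes (rows, in role groups separated by lines) from its own mean over the 6 arrays (columns), on the log2 scale, with colours limited at -0.6 and 0.6. Control replicate 3 is the highest of the 6 arrays for 32 genes, and the lowest array belongs to the transgenic group for 48.

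The arrays within a genotype were not alike. The median deviation of the 50 genes from their own means was 0.011, 0.11 and 0.21 in control replicates 1, 2 and 3, and -0.0023, -0.086 and -0.20 in ImHABCL6/Uchl1 replicates 1, 2 and 3. The 2 groups thus did not overlap in this median, but control replicate 1 and ImHABCL6/Uchl1 replicate 1 lay next to each other. Control replicate 3 was the highest of the 6 arrays for 32 genes, and the lowest was ImHABCL6/Uchl1 replicate 3 for 19, its replicate 2 for 18 and its replicate 1 for 11. Different genes were thus lowest on different transgenic arrays. Anln, Prc1, Birc5, Cenpf and Ccna2 were lowest in replicate 1, Plk1, Aurkb, Tacc3, Ckap5 and Mybl2 in replicate 2, and Cenpe, Bub1, Espl1, Tpx2 and Mki67 in replicate 3.

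The order of the control arrays was also the order of their erythroid level. Among the controls 29 of the 50 genes were lowest in replicate 1 and highest in replicate 3, the arrays of lowest and highest erythroid mean, and 17.2% of all genes were. In the transgenic group the same comparison gave 10 of 50 genes that were lowest in the array of lowest erythroid mean and highest in that of highest, against 23.5% of all genes. With control replicate 3 and ImHABCL6/Uchl1 replicate 1 left out, the remaining 2 arrays of each genotype had erythroid means of 10.50 and 10.36. Then 43 of the 50 mitotic genes were lower with a median of -0.17, 3 of them at an unadjusted limma p under 0.05 (3.12% of all genes). The median over all genes was -0.032 in this setting, against 0.0029 over all arrays. With the erythroid mean as a covariate 44 of the 50 were lower with a median of -0.18, and the median over all genes was -0.021. The covariate moved single genes both ways: 27 of the 50 differences became lower and 23 higher. Among those that became lower were Cenph (from -0.42 to -0.69), Cenpa (from -0.42 to -0.54), Tacc3 (from -0.26 to -0.53), Ckap5 (from -0.22 to -0.49), Aurkb (from -0.18 to -0.44), Cks2 (from -0.23 to -0.43) and Spc24 (from -0.29 to -0.42). Among those that moved up were Anln, Cenpf, Birc5, Incenp, Ccna2, Spc25 and Pttg1, whose values are given with each gene.

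Promoters of mitotic genes are known for a pair of motifs, and stretches are shown for a few members so that letters and expression differences can be read together. RefSeq start sites of assembly GRCm38.p6 gave 49 windows for 44 of the 51 genes, each from 250 bases before to 50 after a start; some genes had several windows. Aurkb, Ccna2, Cdc25c, Foxm1, Incenp, Spc24 and Tpx2 were not matched. Capitals mark the box bound by the transcription factor NF-Y (CCAAT, or ATTGG on the other strand) and the cell cycle genes homology region, CHR, bound by the MuvB complex (TTTGAA or TTCGAA, with TTCAAA the first on the other strand). The stretches are the 150 bases before the start, 5′ to 3′ on the strand of the gene. The first 4 belong to genes that were lower with the transgene on all 3 arrays than on any control: Cdk1 (chr10:69352913-69353062, minus strand), Ccnb2 (chr9:70421555-70421704, minus), Cenpa (chr5:30666736-30666885, plus) and Prc1 (chr7:80294301-80294450, plus). Cdc20 (chr4:118437344-118437493, minus), Cks1b (chr3:89418292-89418441, minus) and Plk1 (chr7:122159285-122159434, plus) overlapped between genotypes. Anln (chr9:22389207-22389356, minus) had the largest difference of all members by brightest probe set.
Cdk1: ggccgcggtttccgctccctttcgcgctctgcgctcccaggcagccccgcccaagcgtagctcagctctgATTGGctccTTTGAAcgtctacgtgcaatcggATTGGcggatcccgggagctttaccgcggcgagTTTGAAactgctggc
Ccnb2: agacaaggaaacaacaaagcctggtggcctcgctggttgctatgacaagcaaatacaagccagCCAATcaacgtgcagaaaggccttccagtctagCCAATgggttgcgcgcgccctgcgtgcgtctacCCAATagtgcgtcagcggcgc
Cenpa: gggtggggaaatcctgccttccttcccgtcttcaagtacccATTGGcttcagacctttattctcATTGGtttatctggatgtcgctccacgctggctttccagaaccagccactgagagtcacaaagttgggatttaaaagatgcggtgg
Prc1: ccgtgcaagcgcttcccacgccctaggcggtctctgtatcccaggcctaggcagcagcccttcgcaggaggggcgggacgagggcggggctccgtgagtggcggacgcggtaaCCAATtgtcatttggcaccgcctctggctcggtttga
Cdc20: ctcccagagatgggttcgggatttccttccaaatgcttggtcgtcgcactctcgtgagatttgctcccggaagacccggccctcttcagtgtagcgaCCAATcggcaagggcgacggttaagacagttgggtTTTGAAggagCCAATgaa
Cks1b: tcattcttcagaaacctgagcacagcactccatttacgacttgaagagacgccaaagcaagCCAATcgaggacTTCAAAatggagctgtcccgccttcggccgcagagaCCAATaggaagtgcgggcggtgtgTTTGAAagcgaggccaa
Plk1: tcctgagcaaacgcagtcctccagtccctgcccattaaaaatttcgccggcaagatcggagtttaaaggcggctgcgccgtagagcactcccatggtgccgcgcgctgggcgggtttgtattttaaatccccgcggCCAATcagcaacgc
Anln: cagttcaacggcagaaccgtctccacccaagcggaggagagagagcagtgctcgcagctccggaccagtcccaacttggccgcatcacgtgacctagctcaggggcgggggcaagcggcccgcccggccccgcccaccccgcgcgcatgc

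In these stretches Cdk1 and Cks1b each held 2 copies of both motifs, Cdc20 held 2 CCAAT and 1 TTTGAA, and Ccnb2 held 3 CCAAT. Copies of TTTGAA also lay at or past the start, outside the printed stretch, in Ccnb2, Cenpa, Plk1 and Anln, and across the start in Prc1, whose stretch ends in tttga. Over the whole windows, CCAAT was found on either strand in 37 of the 49 member windows, or 75.5%, against 37.4% of the 32851 windows of all genes. TTTGAA was found in 57.1% of member windows and 17.9% of all, and TTCGAA in 8.16% and 1.56%. Either spelling of the CHR together with CCAAT occurred in 57.1% of member windows, 20.4% of the 93 windows of the other mitotic genes and 7.52% of all. For CCAAT alone the share in those other mitotic genes was 53.8%, and for either CHR spelling 35.5%. By gene, 32 of the 44 members had CCAAT, 27 had a CHR, 25 had both, and the others lacked one or both in these windows. These counts describe letters on either strand; windows of one gene can overlap, and then share a copy.

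**Figure D3:**
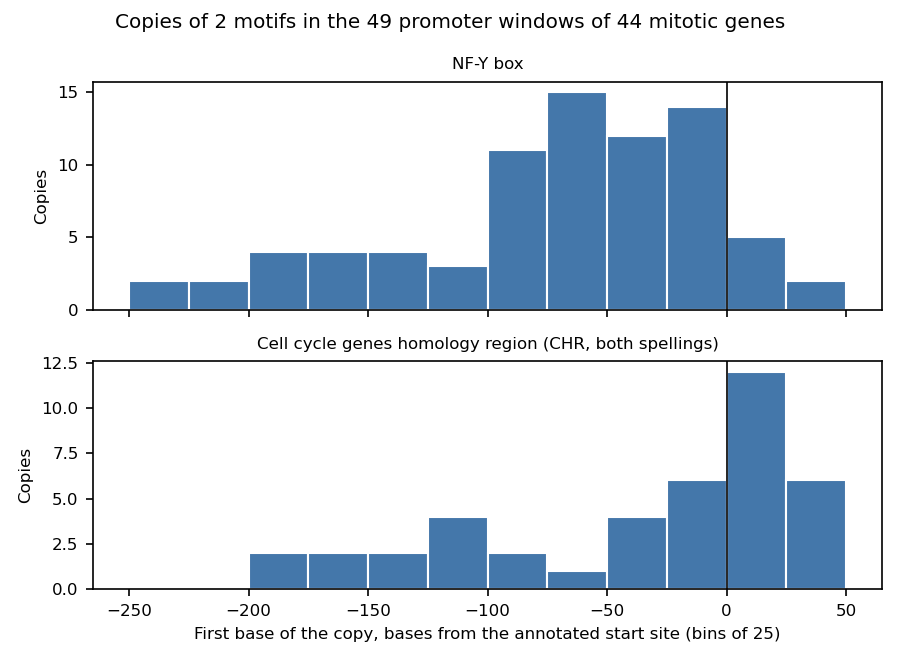
Positions of the NF-Y box (upper panel) and of the CHR in both spellings (lower panel) in the 49 windows of 44 mitotic genes, as the number of copies in bins of 25 bases by distance of the first base from the annotated start. Copies of the NF-Y box have their median at -56.5, and those of TTTGAA, the commoner CHR spelling, at -12.0.

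The 25 measured members with TTTGAA in a window had a median log2 difference of -0.23 and the 18 without it one of -0.26; for CCAAT the medians were -0.23 over 31 members with it and -0.26 over 12 without it. Cdc20 and Cks1b, with both motifs in the printed stretch, differed by -0.0027 and -0.0081, and Cdk1, which has both as well, by -0.31. For Cdc20 the mean of all its probe sets gave -0.10.

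The engine of mitotic entry was lower in all 7 measured members, with a median of -0.23. Beside this count, and those of the role groups below, 49.4% of all genes had the lower mean. Among genes at least as bright as the dimmest member 64.8% did. No role group was tested as a set. Cdk1, the kinase itself, read 11.08, 11.16 and 11.19 in the controls and 10.72, 10.79 and 11.01 with the transgene. The groups did not overlap, and the difference was -0.31 (SE 0.13), or 1.24-fold, with a limma adjusted p of 0.998, and -0.20 under array weights. Ccnb2, a B-type cyclin that activates CDK1, read 11.54, 11.58 and 11.60 in the controls and 11.33, 11.13 and 11.36 with the transgene. Its controls lay close together, and all transgenic arrays were below them (difference -0.30, SE 0.13, limma adjusted p = 0.998). Cyclin A2 (Ccna2) differed by -0.26 (-0.064 with the erythroid covariate) and overlapped, because ImHABCL6/Uchl1 replicates 2 and 3 lay close to control replicate 1. Cks2, a small CDK-binding protein, differed by -0.23 through its low value of 12.47 in ImHABCL6/Uchl1 replicate 2, and was -0.088 without that array. Its paralog Cks1b, which also serves the ubiquitin ligase that degrades p27, read 13.02 to 13.07 on all 6 arrays. The phosphatases that activate CDK1 were Cdc25c at -0.15 and Cdc25b at -0.048, and both overlapped between genotypes.

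Of the kinases that act on centrosomes and spindle, all 5 had the lower mean, with a median of -0.14, and none separated the groups. Plk4, which licenses centriole duplication, read 11.27, 11.45 and 11.62 in the controls and 11.14, 11.29 and 10.93 with the transgene. Only control replicate 1 fell within the transgenic range (difference -0.32, SE 0.16, limma adjusted p = 0.998). Aurka, which matures centrosomes and is activated by TPX2, read 9.92, 10.18 and 10.35 in the controls and 9.93, 9.85 and 9.92 with the transgene. Its transgenic arrays were close together while the controls spread (difference -0.25, SE 0.15). Melk and Plk1, the polo-like kinase of mitotic entry, differed by -0.14 and -0.12, in both cases with ImHABCL6/Uchl1 replicate 3 above every control. Nek2, which separates centrosomes, differed by -0.0050.

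The chromosomal passenger complex corrects wrong attachments at the centromere and later guides cytokinesis, and all 4 of its subunits had the lower mean, with a median of -0.20. Birc5 (survivin), the subunit that binds centromeric chromatin, read 11.79, 11.92 and 12.09 in the controls and 11.42, 11.84 and 11.69 with the transgene. The ranges overlapped through ImHABCL6/Uchl1 replicate 2 (difference -0.28, SE 0.16, limma adjusted p = 0.998), and the difference was -0.066 with the erythroid covariate. Incenp, the scaffold, read 12.45, 12.74 and 12.86 in the controls and 12.37, 12.66 and 12.32 with the transgene, a difference of -0.23 (SE 0.16). On this gene, too, ImHABCL6/Uchl1 replicate 2 lay among the controls, and the covariate gave -0.066. The kinase Aurkb differed by -0.18, but by -0.015 without ImHABCL6/Uchl1 replicate 2, by -0.35 without its replicate 1 and by -0.44 with the erythroid covariate. Borealin (Cdca8) differed by -0.089, and by -0.017 when control replicate 3 was left out.

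The spindle checkpoint and the anaphase genes were the most mixed group, with 6 of 8 lower and a median of -0.14. Bub1, the kinase that recruits the checkpoint to kinetochores, read 10.85, 10.99 and 11.06 in the controls and 10.91, 10.69 and 10.56 with the transgene. ImHABCL6/Uchl1 replicate 1 lay among the controls and the other transgenic arrays below them (difference -0.25, SE 0.14, limma adjusted p = 0.998), and the mean of its probe sets gave -0.029. Bub1b (BubR1), part of the complex that inhibits CDC20, read 10.18, 10.30 and 10.18 in the controls and 10.23, 9.84 and 9.92 with the transgene. The same array lay among the controls, and without it the difference moved from -0.23 (SE 0.15) to -0.34. Both genes of higher mean belong here and were not past the test. Ttk (MPS1), the kinase that starts the checkpoint, read 9.26, 9.18 and 9.36 in the controls and 9.60, 9.43 and 8.90 with the transgene. Its transgenic arrays held the 2 highest values and the lowest (difference 0.046, SE 0.19), and its sign turned when ImHABCL6/Uchl1 replicate 1 or 2 was left out, under array weights and under the erythroid covariate. Bub3, the platform on which the BUB proteins bind, read 12.44, 12.54 and 12.52 in the controls and 12.54, 12.57 and 12.49 with the transgene. The groups overlapped (difference 0.034, SE 0.12), and the sign turned with array weights and without suffixed probe sets.

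Securin (Pttg1), the inhibitor of separase, varied most of all members. It read 12.83, 12.24 and 13.15 in the controls and 11.63, 13.17 and 12.0 with the transgene, so that the highest and the lowest value came from the same genotype. The difference of -0.48 had a standard error of 0.40, the largest of the 50, and it was -0.93 with the second transgenic array left out and -0.155 with the first left out. With the erythroid covariate it was 0.10. The dimmer probe sets of Pttg1 differed by -0.55 and -1.23, and the mean of all its probe sets gave -0.75. Separase itself (Espl1) differed by -0.19, the checkpoint protein Mad2l1 by -0.092 and Cdc20, the activator of the anaphase-promoting complex that the checkpoint blocks, by -0.0027, with 12.45 ± 0.12 in controls and 12.44 ± 0.12 with the transgene (SD, n = 3 each). The dimmer probe sets of Cdc20 differed by -0.13 and -0.18, and the mean of all its probe sets gave -0.10.

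All 11 centromere and kinetochore genes had the lower mean, at a median of -0.29, and 5 of them (Cenpa, Cenph, Cenpi, Cenpk and Spc24) separated the groups; of all genes 49.4% had the lower mean, 64.8% of the equally bright ones did, and 5.49% separated in this direction. Cenpk, a subunit of the inner kinetochore network on centromeric chromatin, read 10.52, 10.70 and 10.80 in the controls and 10.04, 10.33 and 10.07 with the transgene. The groups were 10.67 ± 0.14 and 10.15 ± 0.16 (SD, n = 3 each), a difference of -0.52 (SE 0.14), or 1.44-fold. It had the smallest p of the 50 genes (limma adjusted p = 0.868), and leaving out single arrays gave -0.62 to -0.46. Cenpa, the histone H3 variant that marks the centromere, read 11.34, 11.27 and 11.35 in the controls and 11.06, 10.74 and 10.89 with the transgene. Its controls were tight, at 11.32 ± 0.05 against 10.90 ± 0.16 (SD, n = 3 each), and the difference was -0.42 (SE 0.13, limma adjusted p = 0.983). The mean of its 3 probe sets gave -0.15. Cenpi and Cenph, which belong to the same inner network as Cenpk, differed by -0.38 (SE 0.15) and -0.42 (SE 0.19). Cenph was at -0.27 without ImHABCL6/Uchl1 replicate 2 and at -0.69 with the erythroid covariate. Cenpn, which reads the CENPA nucleosome, differed by -0.15.

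Of the outer kinetochore, the 4 subunits of the NDC80 complex, which grips microtubules, were all lower: Spc24 by -0.29, Spc25 by -0.27, Ndc80 by -0.26 and Nuf2 by -0.19. Their values overlapped between genotypes except for Spc24. Spc25 was at -0.059 with the erythroid covariate, -0.058 over the 2 arrays against 2 and -0.12 without control replicate 3. The fibrous corona protein Cenpf differed by -0.36, with the controls spread from 10.60 to 11.24. It was at -0.20 without control replicate 3, -0.11 with the erythroid covariate and -0.12 over the 2 arrays against 2. The kinetochore motor Cenpe differed by -0.29 through a low value of 10.11 in ImHABCL6/Uchl1 replicate 3, and by -0.12 without that array. Its other probe set differed by 0.15, and the mean of both gave -0.070.

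**Figure D4:**
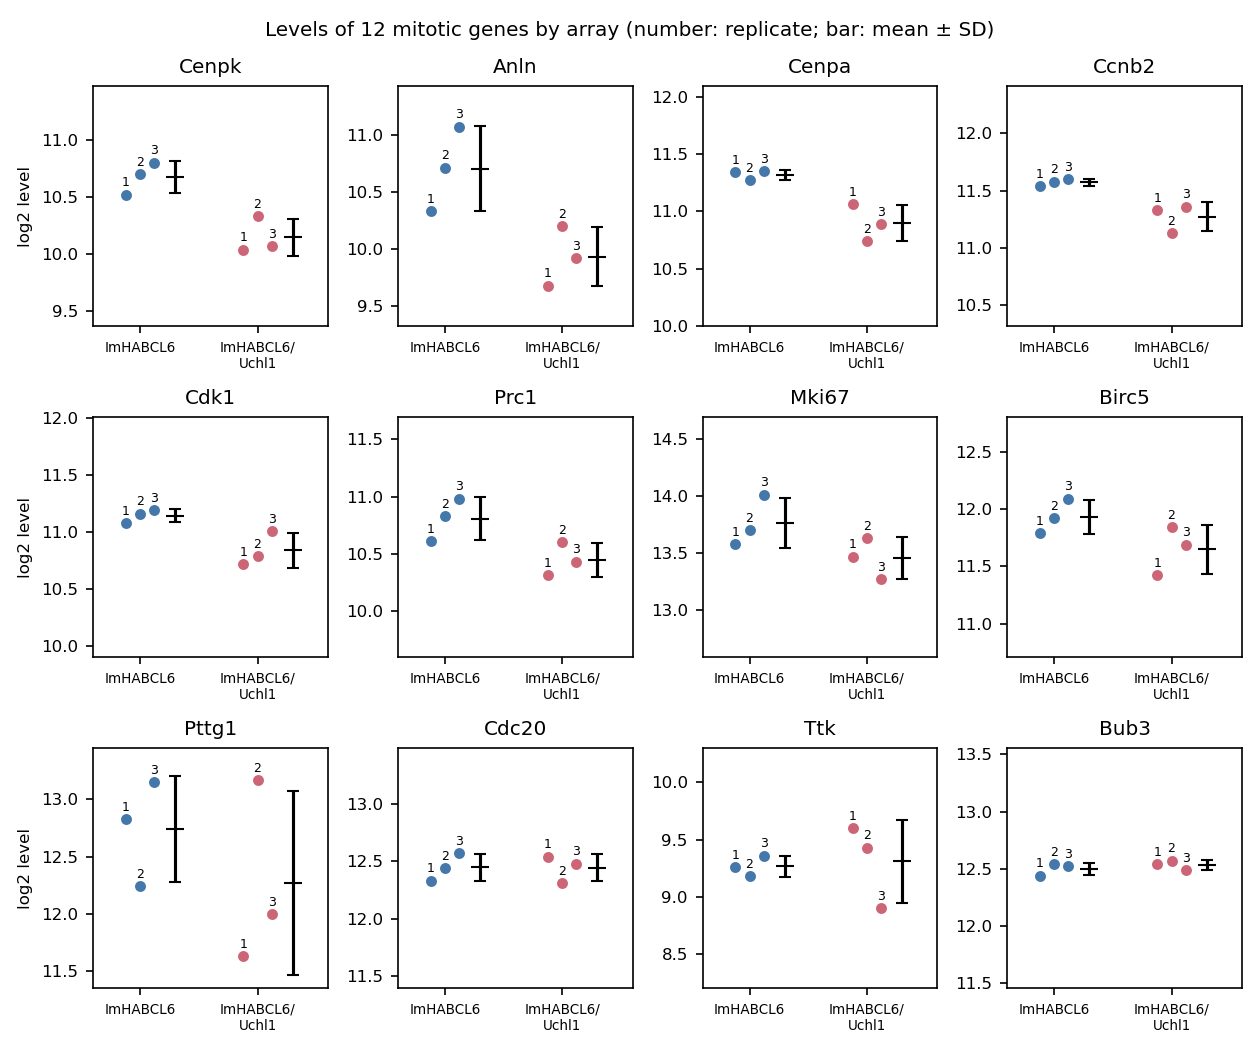
Log2 levels of 12 mitotic genes on each of the 6 arrays, by genotype, with the replicate number at each point and the mean ± SD of 3 arrays beside it; every panel spans the same log2 range. Cenpk, Anln, Cenpa, Ccnb2, Cdk1 and Prc1 do not overlap between genotypes, whereas Pttg1 spreads from 11.63 to 13.17 within the transgenic group.

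The 6 spindle genes all had the lower mean, at a median of -0.26, and none separated the groups. Tpx2, which nucleates spindle microtubules and activates Aurora A, read 9.79, 9.98 and 10.09 in the controls and 9.80, 9.47 and 9.46 with the transgene. ImHABCL6/Uchl1 replicate 1 matched control replicate 1, and the other transgenic arrays lay below every control (difference -0.38, SE 0.15, limma adjusted p = 0.992), and the mean of its 4 probe sets gave -0.18. Hmmr, a hyaluronan receptor that also binds spindle poles, read 10.60, 10.96 and 11.06 in the controls and 10.61, 10.59 and 10.47 with the transgene. Control replicate 1 lay among the transgenic arrays (difference -0.31, SE 0.16). The result rested on probe sets with a suffix in their names: 4 of its 5 probe sets differed by -0.31 to -0.46, and the only one without a suffix by 0.038. The latter was dim, at 7.07 to 7.52, and a suffixed one at 6.55 to 7.43 differed by -0.46. Tacc3 and Ckap5, which work together to stabilise spindle microtubules, differed by -0.26 and -0.22, both through ImHABCL6/Uchl1 replicate 2, at 9.0 and 8.24. Without that array they were at -0.064 and -0.030, whereas the erythroid covariate gave -0.53 and -0.49. Ckap2 differed by -0.25 and Nusap1, a microtubule bundler, by -0.13, and Nusap1 was at 0.080 with the erythroid covariate.

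Cytokinesis genes held the largest difference of all by the brightest probe set of each gene. By the mean of all probe sets Anln was at -0.56 and Pttg1 at -0.75. Anln (anillin), the scaffold that ties actin, myosin and septins into the contractile ring, read 10.33, 10.71 and 11.07 in the controls and 9.68, 10.20 and 9.92 with the transgene. The groups did not overlap, at 10.71 ± 0.37 and 9.93 ± 0.26 (SD, n = 3 each), a difference of -0.77 (SE 0.22), or 1.71-fold, with a limma adjusted p of 0.877. The lowest value came from the array of lowest erythroid level and the highest from that of highest. The difference was -0.45 with the erythroid covariate and -0.46 over the 2 arrays against 2 of closer erythroid level. Prc1, which bundles the central spindle, read 10.61, 10.83 and 10.98 in the controls and 10.31, 10.60 and 10.43 with the transgene. The groups lay just apart (difference -0.36, SE 0.15, limma adjusted p = 0.998), with -0.19 under the covariate and -0.20 over the 2 arrays against 2. The RhoA activator Ect2 differed by -0.19, citron kinase (Cit) by -0.14 and Racgap1, a centralspindlin subunit that binds Ect2, by -0.062, and all 3 overlapped between genotypes. Another Racgap1 probe set of similar brightness differed by -0.21.

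**Figure D5:**
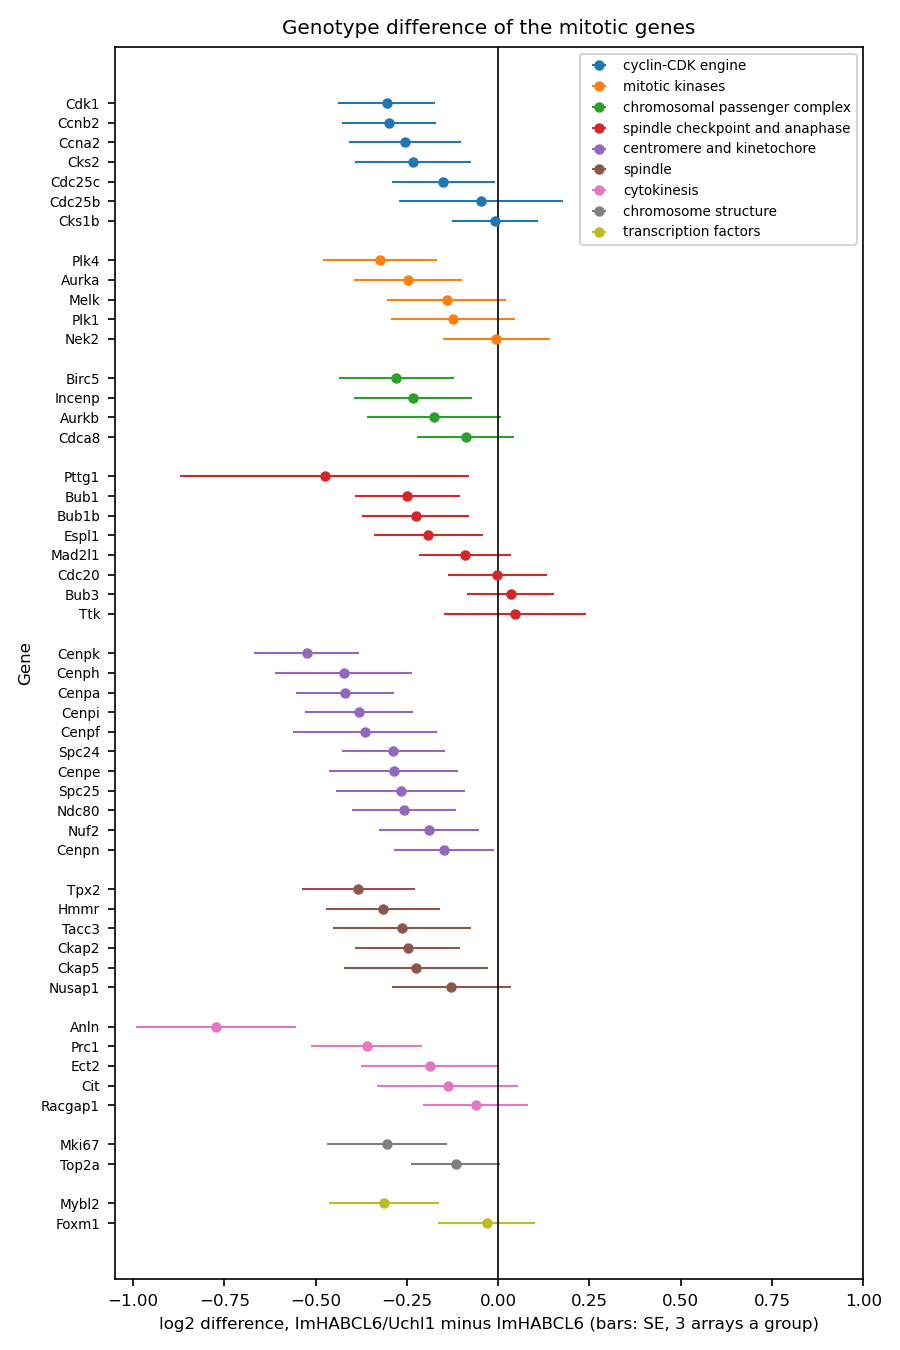
Log2 difference, ImHABCL6/Uchl1 minus ImHABCL6, of each of the 50 genes, coloured by role and sorted within it, with the standard error of limma's fit over 3 arrays a group as bars. Anln lies lowest at -0.77, the kinetochore genes run from -0.52 to -0.15, and only Bub3 and Ttk lie above 0.

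Mki67, the chromosome surface protein used as a proliferation marker, read 13.58, 13.70 and 14.01 in the controls and 13.47, 13.63 and 13.27 with the transgene. Its ranges overlapped narrowly (difference -0.30, SE 0.17, limma adjusted p = 0.998), and the difference was -0.18 without control replicate 3. Top2a, the topoisomerase that untangles sister chromatids, read 12.68, 12.61 and 12.75 in the controls and 12.62, 12.53 and 12.54 with the transgene, a difference of -0.12 (SE 0.12). Of these 2 general markers of dividing cells, neither separated the genotypes.

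The transcription factors of the programme both had the lower mean, and whether their differences were unlike in size was not tested. Mybl2, which joins MuvB to activate mitotic genes, read 8.53, 8.49 and 8.54 in the controls and 8.24, 7.96 and 8.43 with the transgene. All transgenic arrays lay below the tight controls (difference -0.31, SE 0.15, limma adjusted p = 0.998), at -0.19 when ImHABCL6/Uchl1 replicate 2 was left out and -0.14 under array weights. Foxm1, which takes over from MYBL2 in G2, read 7.74, 7.82 and 7.82 in the controls and 7.87, 7.83 and 7.59 with the transgene. Its groups overlapped (difference -0.032, SE 0.13), and the sign turned under quantile normalization and without ImHABCL6/Uchl1 replicate 3. Another Foxm1 probe set of similar brightness differed by -0.23 (SE 0.15), and its remaining ones by -0.040 and -0.047.

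Several probe sets read 34 of the 50 genes, and these allow a check within the arrays. Of all 113 probe sets of the members 95 were lower with the transgene, with a median of -0.19, and 18 were higher. Over all 34945 probe sets with 1 symbol the median was 0.0081. By the brightest probe set of each gene, 49.4% of all genes were lower. All probe sets of a gene were lower for 22 of the 34, all were higher for 1 (Ttk), and 11 genes had both signs. The dimmer probe set of Ttk was at 0.50 (SE 0.22), the highest of all 113, and the mean of its probe sets gave 0.27. The lowest of the 113 was the dimmest probe set of Pttg1, at -1.23 (SE 0.46). Both probe sets of Anln (-0.77 and -0.36), both of Prc1 (-0.36 and -0.59), both of Mybl2 (-0.31 and -0.42) and all 3 of Cenpk (-0.52, -0.34 and -0.28) were lower. The 11 genes with both signs were Bub1, Bub3, Cenpa, Cenpe, Cit, Ckap5, Hmmr, Nek2, Racgap1, Spc25 and Tpx2. Among these 11 genes the highest probe set was at 0.25 for Cenpa, where it read at most 3.91 on any array. It was at 0.19 for Bub1, 0.18 for Nek2, 0.15 for Cenpe and 0.14 for Bub3. For Spc25 it was at 0.081, for Cit at 0.079, for Tpx2 at 0.078, and lower for the rest.

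A second list of mitotic genes outside the members, among them subunits of the anaphase-promoting complex, further CENP proteins, the MIS12 and SKA complexes and regulators of CDK1, was read in the same way; it too was chosen with earlier results known. Of 96 measured genes 79, or 82.3%, were lower and 17 higher, with a median of -0.20. Of all genes 49.4% were lower, and of those at least as bright as the dimmest member 64.8% were. An unadjusted limma p under 0.05 with a lower mean was found for 18 of the 96, where 3.85% of all genes had it. After adjustment 0 passed. All transgenic arrays lay below all controls for 20 of the 96, against 5.49% of all genes, and above for 1, against 3.95%. Those of smallest p, named after their values were seen, included Zwint, a partner of the KNL1 platform (-0.53, SE 0.13), Oip5, which helps to load CENPA (-0.51, SE 0.14), Pbk, a mitotic kinase (-0.45, SE 0.14) and Ska1, which couples kinetochores to microtubule ends (-0.50, SE 0.16). Of 11 measured subunits of MuvB, its DREAM partners and NF-Y, 9 were lower with a median of -0.16, beside those same shares of 49.4% and 64.8%. Nfya, the subunit of NF-Y that contacts CCAAT (-0.42, SE 0.14), and the pocket protein Rbl1 (-0.32, SE 0.13) had an unadjusted p under 0.05 and were both lower; none of the 11 passed after adjustment.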

How the data were processed

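Biotin-labelled total RNA of 6 samples was read on Affymetrix whole-genome mouse arrays. The deposited log2 values, 1 per probe set and array, come from RMA run by the authors, per the submitters' processing notes, which also name Partek. The sources used here give no version or setting. These values ran from 2.16 to 15.1. RMA normalizes between arrays and compresses differences of dim probe sets.

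Gene names come from the platform annotation held by GEO: 34945 of 45101 had 1 symbol, 932 several and 9160 none, beside 64 controls. Each of 18193 genes took its brightest probe set, with no filter. limma 3.58.1 (lmFit and eBayes, R 4.3.3) tested the genotype difference, in both directions and without a block, and p-values were adjusted by Benjamini-Hochberg over the 18193 genes, at 0.05. Figures used matplotlib 3.10.9. The 3 samples of a genotype were taken as separate mice, as the design text gives them.

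The members and lists were chosen with earlier results of these data known. All members are named, with values of every array for the 2 of smallest p in each role group and for those of higher mean; Pttg1 was added after its values were seen. The fit was tested on simulated data. Alternatives changed the probe set rule, the filter, the normalization, limma's options, the replicate block, an erythroid covariate and the arrays included; the closing section gives their effect.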

Additional observations from a re-analysis of the deposited data

How the results depend on the processing

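Under 17 other settings 0 members and 0 genes passed an adjusted p of 0.05, and 0 passed at 0.10 under the settings of the report. The members of lower mean numbered 37 of 41 without suffixed probe sets (names ending in _x_at, _s_at or _a_at), 42 of 50 after quantile normalization and 95 of 113 when all probe sets were tested. The median over all genes or probe sets was 0.0058, 0.0093 and 0.0081 in that order. With single arrays left out 43 to 49 of 50 members were lower. Their median then ran from -0.30 to -0.18, and that over all genes from -0.020 to 0.016. The members of unadjusted p under 0.05, 7 as reported and all lower, were 24 with array weights (background 9.88% of genes), 12 with the erythroid covariate (11.0%), 3 with trend and robust options, 16 of 113 probe sets, 3 over 2 arrays against 2 of closer erythroid level, and 3 to 11 with single arrays left out. That 2 against 2 setting was chosen after seeing the data. The array weights leaned on ImHABCL6/Uchl1 replicate 3, at 3.30 against 0.51 and 0.30 for its replicates 1 and 2. Same-numbered arrays of the genotypes correlated in their deviations from the group means at 0.43, 0.19 and -0.26. With 3 arrays a group that also differed in erythroid level, these values cannot settle whether the numbers pair mice. With the replicate block 48 members were lower with a median of -0.24, and 5 had an unadjusted limma p under 0.05 (4.45% of all genes).

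Of 841 member values under these settings 46 turned sign, in 16 members; the other 34 never did. The cause was not tested. Nek2 was at 0.00034 with the mean of all probe sets. Without suffixed probe sets Nek2 was at 0.032, Bub3 at -0.058, Spc25 at 0.081 and Hmmr at 0.038. Quantile normalization gave 0.017 for Cdc25b, 0.0047 for Cks1b, 0.068 for Nek2, 0.032 for Cdc20, 0.020 for Racgap1 and 0.019 for Foxm1. Array weights gave 0.042 for Plk1, 0.071 for Nek2, 0.091 for Melk, -0.0084 for Bub3, -0.22 for Ttk and 0.026 for Cdc20. The erythroid covariate gave 0.12 for Cdc25b, 0.010 for Cks1b, -0.050 for Ttk, 0.10 for Pttg1, 0.080 for Nusap1 and 0.11 for Cit. The 2 against 2 arrays gave 0.093 for Cdc25b, 0.0009 for Cks1b, -0.056 for Ttk, 0.010 for Cdc20, 0.050 for Pttg1, 0.036 for Nusap1 and 0.095 for Cit. With single arrays left out, Nek2 ran from -0.085 to 0.12, Cks1b from -0.025 to 0.0039, Cdc25b from -0.21 to 0.14, Cdc20 from -0.060 to 0.065, Ect2 from -0.34 to 0.0032, Racgap1 from -0.13 to 0.025, Cit from -0.27 to 0.023, Ttk from -0.10 to 0.25, Plk1 from -0.23 to 0.051 and Foxm1 from -0.084 to 0.055.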
